A study of Homo sapiens with 4 samples.

Results

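The regulators of antioxidant response elements (AREs) were followed in MIA PaCa-2 cells, an established human pancreatic ductal adenocarcinoma (PDAC) line, after treatment with NBT, trametinib or both. The 7 genes were taken by symbol from the table of 16834 genes, and all of them were found: NFE2L1, NFE2L2, KEAP1, BACH1, MAFF, MAFG and MAFK. Control cells, labelled only as control, were compared with cells treated for 12 h with 1 µM NBT (neobractatin), a natural product of the plant Garcinia bracteata, 5 µM trametinib, which blocks the kinase MEK, or 1 µM NBT plus 5 µM trametinib. Every library is labelled as wild type, and no allele was introduced. Each condition is 1 library of 1 cell line, sequenced by mRNA-seq, so the spread between cultures was not measured, no value has a replicate check and no p-value is given. The labels' entry for the cell line carries a different number in each library, whereas all titles name MIA PaCa-2.

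NRF2, the product of NFE2L2, is the transcription factor that switches on antioxidant and detoxifying genes. In unstressed cells KEAP1 binds NRF2 and hands it to a ubiquitin ligase for destruction, and oxidants or electrophiles that modify KEAP1 let NRF2 build up, so that its main control is at the protein and not at the mRNA. To bind an ARE, NRF2 needs a small MAF protein as partner, MAFF, MAFG or MAFK, which carry a DNA-binding leucine zipper but no activation domain of their own. BACH1 takes the same partners and sites and represses the genes, HMOX1 above all, until heme or oxidants remove it. NRF1, the product of NFE2L1, is a relative of NRF2 that is anchored in the endoplasmic reticulum (ER) and drives the genes of the proteasome. These libraries measure mRNA only, and neither the amount nor the location of any of these proteins was measured.

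The largest differences among the 7 genes lay in the small MAF genes, and the promoter regions of MAFF and MAFG are shown for that reason, with that of NFE2L2 beside them because its mRNA differed from the control in the other direction with trametinib. The sequences are the 250 bases before a transcript start, 5′ to 3′ on the gene's strand, from RefSeq (GRCh38.p14), at chr22:38201744-38201993 on the plus strand for MAFF, chr17:81927736-81927985 on the minus strand for MAFG and chr2:177264728-177264977 on the minus strand for NFE2L2. Capitals mark matches to the motifs searched.
MAFF: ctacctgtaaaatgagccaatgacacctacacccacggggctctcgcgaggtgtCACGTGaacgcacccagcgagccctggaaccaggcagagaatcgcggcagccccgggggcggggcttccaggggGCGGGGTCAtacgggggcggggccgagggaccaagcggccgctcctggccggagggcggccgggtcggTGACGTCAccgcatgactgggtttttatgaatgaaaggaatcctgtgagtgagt
MAFG: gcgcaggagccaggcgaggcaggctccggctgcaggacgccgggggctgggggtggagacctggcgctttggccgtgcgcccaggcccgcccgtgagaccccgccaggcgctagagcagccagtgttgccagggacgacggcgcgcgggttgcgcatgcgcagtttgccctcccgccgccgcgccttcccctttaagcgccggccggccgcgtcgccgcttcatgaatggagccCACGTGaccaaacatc
NFE2L2: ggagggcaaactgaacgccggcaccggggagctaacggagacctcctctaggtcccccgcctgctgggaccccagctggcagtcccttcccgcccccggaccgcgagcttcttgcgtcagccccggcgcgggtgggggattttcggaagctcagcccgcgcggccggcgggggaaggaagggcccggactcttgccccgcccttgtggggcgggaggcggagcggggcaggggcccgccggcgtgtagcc
In the MAFF window the capitals are, in order, an E-box (CACGTG), an ARE core read on the other strand (GCGGGGTCA) and a cAMP response element (CRE, TGACGTCA). The MAFG window held an E-box 16 to 11 bases before the start, and the NFE2L2 window held none of the motifs. The motifs were searched on both strands as ARE core TGACNNNGC, AP-1 TGANTCA, CRE TGACGTCA and E-box CACGTG, and by name as the MAF recognition element and the CArG box, and they were chosen after the expression values were seen. Among 19220 such windows of all genes, 11.4% held an ARE core, 5.1% an AP-1 motif, 2.17% a CRE, 7.77% an E-box, 1.14% a CArG box and 0 the MAF recognition element. Of the 7 genes, MAFK had no promoter entry and was not searched. The other windows of the remaining genes held 2 ARE cores at KEAP1, an AP-1 motif at BACH1 and an E-box at a second start of MAFF. None of the motifs was found at NFE2L1. A match is a run of letters and not a bound site, and binding was not measured here.

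The 4 libraries held between 18776212 and 19614763 estimated counts. A count of 3, the limit that a count of 0 allows, was 0.153 to 0.16 CPM (counts scaled to the library sum), and the lowest member value, 139 counts of MAFF, was far above it. The labelled pancreatic epithelial origin was checked on markers. The epithelial genes KRT8, KRT18, EPCAM and CDH1 summed to between 2760 and 7270 TPM (abundance scaled to transcript length and library), whereas leukocyte markers summed to 0.76 to 5.21 TPM, endothelial markers to 0.29 to 0.67 and fibroblast markers to 0.51 to 1.71. These sums were highest with trametinib. The mesenchymal markers VIM, CDH2 and FN1 summed to 20.5 to 35.5 TPM. In the control library VIM stood at 11.5 TPM and CDH1 at 85.4. Whether these levels are those of MIA PaCa-2 was not tested, and the markers do not identify a cell line. CD3E had 0 counts in the control and NBT libraries, 55 with trametinib and 29 with both drugs, VWF had 3, 4, 25 and 6 in the order control, NBT, trametinib and both, and COL1A1 had 45, 27, 98 and 53, and all 3 were higher past the limits described below with trametinib, while CDH5, PDGFRB and CD14 had 3 or fewer counts in each library. The epithelial sum differed between the libraries, at 7270 TPM in the control library, 6110 with NBT, 3560 with trametinib and 2760 with both drugs. The keratins KRT18 and KRT8 were lower past the same limits with both drugs, with log2 ratios of -1.62 and -1.31, whereas EPCAM and CDH1 were not. EPCAM had 3502 counts in the control library, 3113 with trametinib and 3383 with both drugs, and CDH1 had 3912, 4086 and 2804. Of the 3 mesenchymal markers, with a median of -0.06, VIM was higher with both drugs, at 1.24, whereas FN1 and CDH2 had -0.54 and -0.06. The part of this in the results on the 7 genes was not tested, and in bulk RNA fewer cells of a type and less RNA per cell cannot be told apart. Trametinib was checked on 10 genes that respond to the MAP kinase pathway, which MEK drives. All 10 were lower past the limits with trametinib, with a median log2 ratio of -3.43, and with both drugs, with a median of -3.53. DUSP6, a phosphatase of ERK, had 329 counts in the control library, 521 with NBT, 14 with trametinib and 9 with both. CCND1, which encodes cyclin D1, and ETV5, an ETS transcription factor, were lower with both drugs, at log2 ratios of -4.77 and -4.03.

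On the length-scaled TPM scale, NFE2L2 and NFE2L1 were the most abundant of the 7 mRNAs in each library. NFE2L2 stood at 94.3 TPM in the control library, 107 with NBT, 142 with trametinib and 162 with both drugs. NFE2L1 stood at 75.3, 77.8, 80.6 and 129 TPM in the same order. KEAP1 came next, between 60.3 and 64.7 TPM in the 4 libraries. The other genes were lower, and their order depended on the condition. In the control library MAFK (28.8 TPM), MAFF (27.0) and MAFG (25.9) followed each other so closely that the counting intervals of neighbours overlapped, and BACH1 was lowest at 10.4 TPM. With NBT the 3 small MAF genes were again neighbours with overlapping intervals, between 34.9 and 36.1 TPM. With trametinib they came apart, and MAFF, at 6.05 TPM, was then below BACH1 at 10.3 TPM, the only change of place between MAFF and BACH1 in the 4 libraries. With both drugs MAFK was at 48.7 TPM, MAFG at 43.3, MAFF at 17.4 and BACH1 at 14.6.

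**Figure D1:**
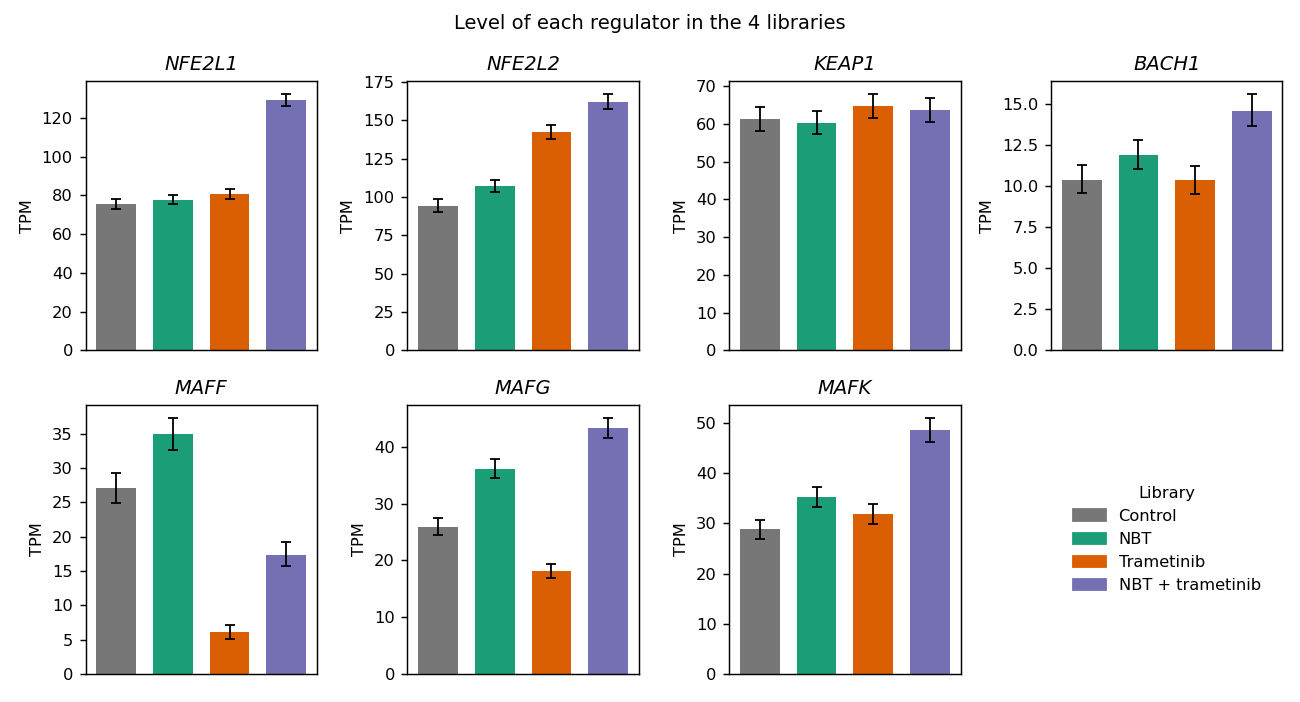
Level of each of the 7 regulators in TPM in the 4 libraries. Each gene has 1 panel with its own axis from 0 and 1 bar for each library. Error bars are exact Poisson counting intervals and not the spread between cultures, since each condition has 1 library. MAFF falls from 27.0 TPM in the control library to 6.05 with trametinib, whereas KEAP1 stays between 60.3 and 64.7 TPM.

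A gene was called higher or lower where an exact test of the counts of 2 libraries passed a false discovery rate of 0.05 over all genes tested and the fold was at least 2, and a milder limit of 1.5-fold was used beside it. The ratios that follow are log2 ratios of counts scaled to the library sums, and their 95% intervals cover counting error only. With NBT, 0 of the 7 genes passed the 2-fold limit and 0 the 1.5-fold limit. Of all 15888 genes tested, 2.61% passed the 2-fold limit, 3.94% were higher by 1.5-fold and 3.07% lower. The 7 ratios were all above 0, although that of KEAP1 was -0.02 when computed from TPM, with a median of 0.26 against -0.01 over all genes. With trametinib 1 of the 7, MAFF, was lower past the 2-fold limit, where 5.96% of all genes passed in either direction. Past the 1.5-fold limit NFE2L2 was higher and MAFF lower, against 7.78% of all genes higher and 4.57% lower. The median of the 7 was 0.11, close to the 0.08 of all genes. With both drugs against the control 0 of the 7 passed the 2-fold limit, although 8.42% of all genes did. At 1.5-fold, NFE2L1, NFE2L2, MAFG and MAFK were higher and MAFF lower, where 10.5% of all genes were higher and 8.44% lower. The median of the 7 was 0.78 and that of all genes 0.05. The 3 comparisons with the control share its library.

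**Figure D2:**
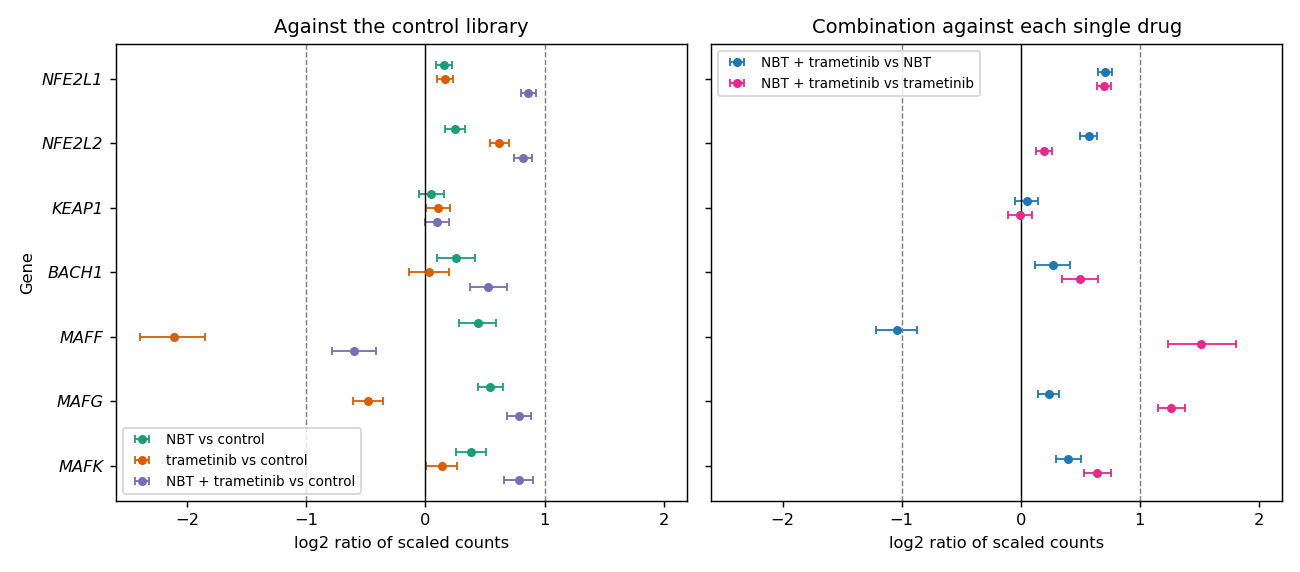
Log2 ratios of the 7 regulators between libraries, with the 3 treated libraries against the control on the left and the combination against each single drug on the right, and with bars for 95% counting intervals. MAFF stands alone at -2.11 with trametinib, and MAFF and MAFG lie at 1.51 and 1.27 for the combination against trametinib.

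The activator NFE2L2 (Gene 4780, chromosome 2, 177230303 to 177264727) was above the control with every treatment. Its estimated counts were 2196 in the control library, 2698 with NBT, 3407 with trametinib and 4046 with both drugs, so that the control was lowest and the combination highest. With NBT the log2 ratio was 0.25 (0.17 to 0.33). Of the genes with at least 100 counts, 17.8% lay at least as far above 0. Trametinib gave 0.62 (0.54 to 0.70), and the 1.54-fold difference passed the milder limit. In the combination the ratio was 0.82 (0.74 to 0.89). The sum of the single-drug ratios was 0.87, and the combination departed from it by -0.05 with an interval of -0.15 to 0.06 that included 0. Added to trametinib, NBT gave 0.20 (0.13 to 0.26), and added to NBT, trametinib gave 0.57 (0.50 to 0.64). The transcript NM_006164.5 held between 95.1% and 95.6% of the TPM of NFE2L2 in the 4 libraries.

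KEAP1 (Gene 9817, chromosome 19, 10486125 to 10503356), the adaptor that marks NRF2 for degradation, moved least of the 7. Its counts were 1474 in the control library, 1579 with NBT, 1600 with trametinib and 1649 with both drugs. The log2 ratio was 0.05 (-0.05 to 0.15) with NBT, 0.11 (0.002 to 0.21) with trametinib and 0.10 (-0.003 to 0.20) with both. Between 41.9% and 43.5% of genes lay at least as far above 0 in these comparisons. A change larger than 0.21 with trametinib, or 0.20 with both drugs, was outside the counting interval, while the spread between cultures was not measured. With NFE2L2 higher and KEAP1 close to its control level, the ratio of NFE2L2 to KEAP1 TPM was 1.54 in the control library, 1.77 with NBT, 2.2 with trametinib and 2.55 with both drugs. Leading KEAP1 transcripts held between 47.1% and 52.7% of its TPM, NM_012289.4 in the control and trametinib libraries and NM_203500.2 in the others. Such splits divide reads that several transcripts share.

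The repressor BACH1 (Gene 571, chromosome 21, 29298922 to 29361894) had 565 counts in the control library, 699 with NBT, 581 with trametinib and 850 with both drugs. The libraries with NBT were the higher ones. NBT gave a log2 ratio of 0.26 (0.10 to 0.42), trametinib 0.03 with an interval that included 0 (-0.14 to 0.20) and a sign that turned under other scalings, and both drugs 0.53 (0.37 to 0.68). None of these passed the 1.5-fold limit. The departure from the sum of the single drugs was 0.24 (0.02 to 0.46), and 15.1% of genes departed at least as far upward. The NFE2L2 mRNA exceeded that of BACH1 in each library, with TPM ratios of 9.07 in the control library, 8.97 with NBT, 13.7 with trametinib and 11.1 with both drugs.

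NFE2L1 (Gene 4779, chromosome 17, 48048359 to 48061545) was close to the control with each drug alone and higher with the combination. The counts were 3281 in the control library, 3774 with NBT, 3710 with trametinib and 6234 with both drugs, which set the combination apart from the other libraries. The single drugs gave log2 ratios of 0.15 (0.08 to 0.22) and 0.16 (0.10 to 0.23). Both drugs gave 0.86 (0.80 to 0.92), a 1.82-fold difference past the milder limit. The combination was higher than NBT alone by 0.71 (0.65 to 0.77) and higher than trametinib alone by 0.70 (0.64 to 0.76). It exceeded the sum of the single-drug ratios by 0.55 (0.46 to 0.64). Of the 10662 genes with at least 100 counts, 2.93% departed at least as far upward. The leading NFE2L1 transcript was NM_001330262.2 in the control library, with 52.5% of the gene's TPM, and XM_005257412.4 in the treated libraries, with 46.5%, 48.0% and 42.1%, again from shared reads and with no replicate.

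MAFF (Gene 23764, chromosome 22, 38201994 to 38216511), a small MAF, had the widest range of the 7. The estimated counts were 598 in the control library, 839 with NBT, 139 with trametinib and 412 with both drugs. NBT was highest and trametinib lowest, and the combination lay between trametinib and the control. Trametinib gave a log2 ratio of -2.11 (-2.40 to -1.85), a 4.33-fold lower level. Of 10520 genes, 0.561% lay at least as far below 0. A negative binomial test kept the call where cultures were taken to vary with a coefficient of 0.2 and lost it with 0.4. NBT alone gave 0.44 (0.29 to 0.59), under the 1.5-fold limit. Both drugs gave -0.60 (-0.79 to -0.42), past the milder limit only. Against trametinib alone, the combination was 2.86-fold higher, at 1.51 (1.24 to 1.81), and against NBT alone it was 2.05-fold lower, at -1.04 (-1.21 to -0.87). The combination stood 1.08 (0.76 to 1.39) above the sum of the single-drug ratios of -1.68. A share of 0.544% of genes departed at least as far upward. RefSeq places 117 bases of TMEM184B over MAFF, and whether the counting used strand is not given in the sources used here. TMEM184B had 2205, 1751, 2055 and 2073 counts in the same order of libraries, a log2 ratio of -0.11 with trametinib. MAFF counts were not whole numbers in any of the 4 libraries, the form an estimated count takes where reads are divided between genes. NM_012323.4 held 81.1% of the MAFF TPM in the control library, 83.8% with NBT, 100% with trametinib and 47.1% with both drugs.

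MAFG (Gene 4097, chromosome 17, 81918270 to 81931244), the second small MAF, had 1250 counts in the control library, 1888 with NBT, 901 with trametinib and 2246 with both drugs. The libraries with NBT were above the control and that with trametinib alone was below it. The log2 ratios were 0.54 (0.44 to 0.65) with NBT, -0.49 (-0.61 to -0.36) with trametinib and 0.78 (0.68 to 0.88) with both drugs, and the last of these passed the milder limit. The combination was 2.41-fold higher than trametinib alone, with a log2 ratio of 1.27 (1.16 to 1.38). In that comparison 1.54% of genes lay at least as far above 0. Against NBT alone the combination differed by 0.24 (0.15 to 0.33). Its level exceeded the sum of the single drugs by 0.72 (0.57 to 0.87), and 1.43% of genes departed at least as far upward. The ratio of trametinib to no trametinib thus stood below 0 without NBT and above 0 with it. NM_002359.4 held between 84.5% and 100% of the MAFG TPM. The antisense gene MAFG-AS1 and MILIP overlap MAFG in RefSeq and have no row of their own in the table, so that reads from them cannot be told apart from those of MAFG without strand.

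MAFK (Gene 7975, chromosome 7, 1530702 to 1543043), the third small MAF, was the one that did not drop below the control with trametinib. It had 900 counts in the control library, 1213 with NBT, 999 with trametinib and 1617 with both drugs. The log2 ratios were 0.38 (0.26 to 0.51), 0.14 (0.01 to 0.27) and 0.78 (0.66 to 0.90) in this order of treatments, and the last passed the milder limit. The combination was higher than trametinib alone by 0.64 (0.53 to 0.76) and differed from NBT alone by 0.40 (0.29 to 0.51). The departure from the sum of the single drugs was 0.26 (0.10 to 0.43), and 13.5% of genes departed at least as far upward. MAFK counts, like those of MAFF, were not whole numbers in any of the 4 libraries. In RefSeq, LOC100128653 overlaps MAFK by 2428 bases and has no row of its own in the table, and TMEM184A overlaps it by 809 bases and had counts of 579, 602, 772 and 962 in the same order of libraries, with a log2 ratio of 0.67 with both drugs. The part of either in the MAFK counts was not tested.

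In the comparison of the combination with the single drugs, MAFF was the 1 gene of the 7 past the 2-fold limit against NBT alone, where 4.36% of all genes passed. At 1.5-fold, NFE2L1 was higher and MAFF lower against NBT, beside 5.25% of all genes higher and 4.09% lower. Against trametinib alone, MAFF and MAFG were higher past the 2-fold limit, which 6.11% of all genes passed, and NFE2L1, MAFF, MAFG and MAFK were higher past 1.5-fold. Where cultures were assumed to vary with a coefficient of 0.2, a negative binomial test no longer called MAFF against NBT or MAFG against trametinib, and with 0.4 it called 0 of the 7 in both comparisons. Of all genes 6.42% were higher and 8.32% lower by 1.5-fold in that comparison. The medians of the 7 were 0.27 against NBT and 0.64 against trametinib, and those of all genes 0.03 and -0.05. Of the departures from the sum of the single drugs, those of 5 genes were above 0 with intervals that did not include it, and those of NFE2L2 and KEAP1 had intervals that did.

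**Figure D3:**
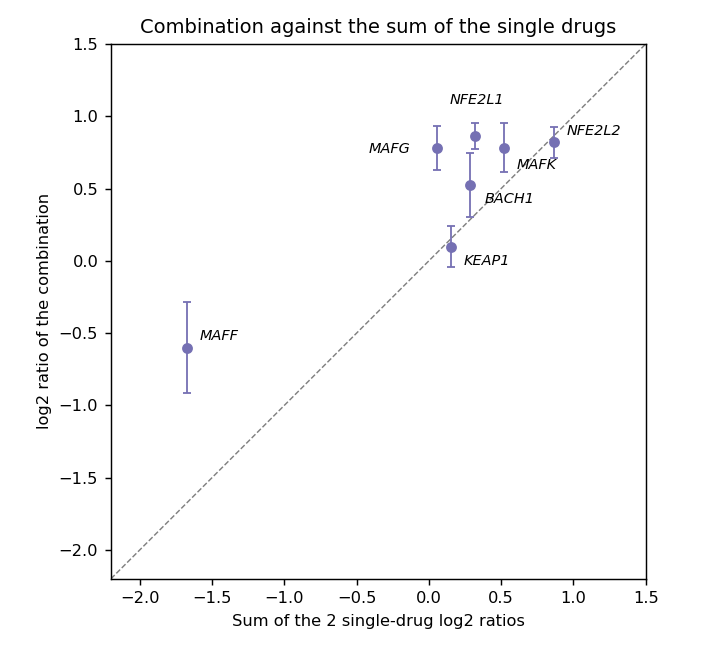
Log2 ratio of the combination against the control on the vertical axis and the sum of the 2 single-drug log2 ratios on the horizontal axis for the 7 regulators, with a diagonal line where both are equal and vertical bars for the 95% counting interval of the departure. MAFF, MAFG and NFE2L1 lie 1.08, 0.72 and 0.55 above the line, and NFE2L2 and KEAP1 lie on it within their bars.

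Since the small MAF proteins are shared partners, their mRNAs were also summed. The sum was 81.7 TPM in the control library, 106 with NBT, 56.0 with trametinib and 109 with both drugs. Its make-up differed between the libraries. In the control library MAFF, MAFG and MAFK took 33.0%, 31.7% and 35.3% of the sum, and with NBT 32.8%, 34.0% and 33.2%. With trametinib MAFF took 10.8% and MAFK 56.8%, and with both drugs MAFF took 15.9%, MAFG 39.6% and MAFK 44.5%. Their partners NFE2L1, NFE2L2 and BACH1, which belong to the CNC family, together stood at 2.2 times the TPM of the small MAF genes in the control library, 1.85 times with NBT, 4.16 times with trametinib and 2.8 times with both. These are ratios of mRNA and not of protein.

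**Figure D4:**
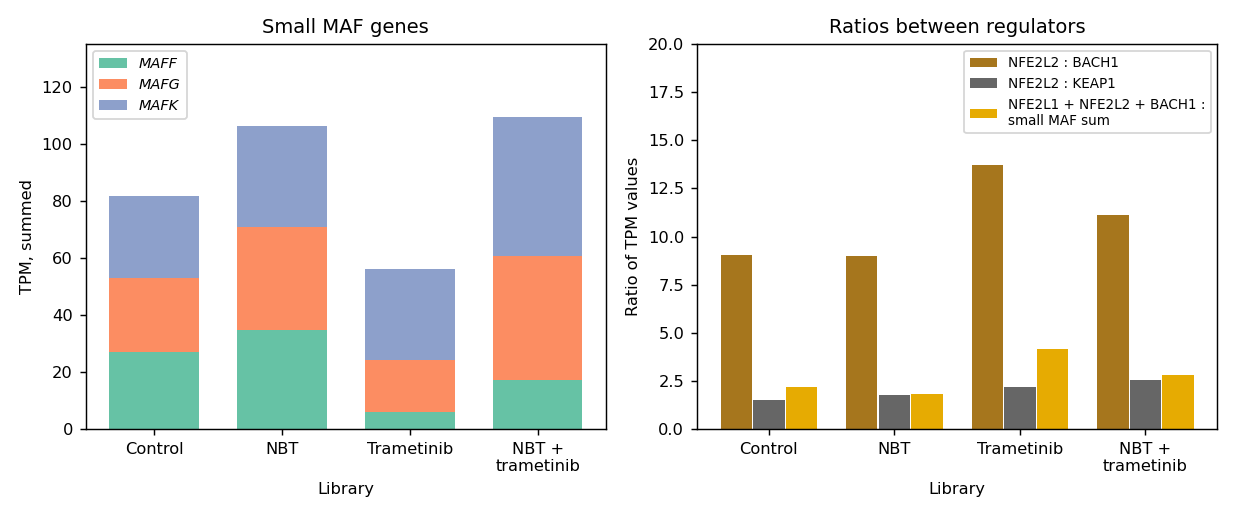
Summed TPM of MAFF, MAFG and MAFK in the 4 libraries as stacked bars on the left, and ratios between TPM values of the regulators on the right, without error bars because each condition has 1 library. The small MAF sum is lowest with trametinib, at 56.0 TPM, where the ratio of the CNC genes to small MAF genes is highest, at 4.16.

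The genes nearest to MAFF in pattern were sought among 10661 others with at least 100 counts, by the root mean square difference of the 3 log2 ratios against the control. They were PLAUR, the urokinase receptor (0.156), MYC, a transcription factor of cell growth (0.195), LIF, a cytokine (0.233), MFSD2A, a lipid transporter (0.237), and CDC42EP1, an effector of the GTPase CDC42 (0.273). PLAUR had log2 ratios of 0.55 with NBT, -2.16 with trametinib and -0.36 with both drugs, and MYC had 0.46, -2.43 and -0.70. Of the 7 regulators, NFE2L1 and MAFK were the pair with the smallest difference, at 0.141, and each of the others differed from MAFF by 1.23 or more.

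Other genes of the family were measured too. NFE2L3, a CNC relative of NFE2L1, had 1189 counts in the control library, 992 with NBT, 675 with trametinib and 597 with both drugs, and with both it was lower past the 2-fold limit, at -1.06. It thus lay on the other side of the control from NFE2L1 and NFE2L2. NRL, a large MAF protein, had between 70.5 and 143 counts, BACH2, a relative of BACH1, between 19.1 and 25.8, and MAF and MAFA had 5 or fewer in each library.

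Genes that act on these regulators were counted in the same way. Of 12 genes of NRF2 turnover, 2 were higher past the 2-fold limit with NBT, 1 with trametinib and 2 with both drugs, with medians of -0.01, -0.05 and -0.12, where 2.61%, 5.96% and 8.42% of all genes passed in either direction. They were SQSTM1, whose product p62 binds KEAP1 and draws it into autophagy, and SYVN1, the ER ubiquitin ligase HRD1. SQSTM1 had 14676 counts in the control library, 34880 with NBT, 30287 with trametinib and 86086 with both drugs, a log2 ratio of 2.49 for the combination, and is also among the ARE target genes. SYVN1 had log2 ratios of 1.04 with NBT, -0.45 with trametinib and 1.23 with both drugs. CUL3, the scaffold of the ligase that KEAP1 serves, had ratios between -0.05 and 0.09. Of 10 genes that process or degrade NRF1, 1 passed with NBT (SYVN1), 0 with trametinib and 2 with both drugs, namely SYVN1 and SEL1L, its partner in ER-associated degradation, with 1.41. Their medians were 0.28, -0.01 and 0.52. Past 1.5-fold with both drugs, 5 of these 10 were higher and 1 lower, against 10.5% and 8.44% of all genes. Beside SYVN1 and SEL1L, the higher ones were NGLY1 (0.83), which removes sugars from NRF1, VCP (0.78), the ATPase that extracts it from the ER, and OGT (0.76), a sugar transferase, and the lower one was HCFC1 (-0.59), a partner of OGT. Of 3 genes of BACH1 turnover and export and of 6 cofactors and antagonists of NRF2, 0 passed the 2-fold limit in the 3 comparisons with the control, and among the cofactors SMARCA4, a chromatin remodeller, had -0.84 with both drugs and RXRA, a nuclear receptor that restrains NRF2, 0.84 with trametinib.

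The genes that the regulators act on were examined next. Of 32 ARE target genes, 11 were higher past the 2-fold limit with NBT and 0 lower, with a median log2 ratio of 0.64. With trametinib 6 were higher and 1 lower, with a median of 0.42, and with both drugs 17 were higher and 0 lower, with a median of 1.40. Among all genes tested, 2.61% passed in either direction with NBT, 5.96% with trametinib and 8.42% with both drugs. HMOX1, the heme oxygenase that BACH1 represses, had 121 counts in the control library, 4825 with NBT, 382 with trametinib and 44631 with both drugs, a log2 ratio of 8.46 for the combination. SLC7A11, the cystine importer, and GCLC and GCLM, the subunits of the enzyme that starts glutathione synthesis, were higher with both drugs by 4.14, 2.91 and 2.51. NQO1, a quinone reductase, had 0.81 with both drugs and passed the milder limit only. With trametinib alone GCLC and GCLM had log2 ratios of 0.45 and 0.46, under both limits. The closely related AKR1C1, AKR1C2 and AKR1C3 share sequence, and their counts are uncertain. AKR1C1 is among the 17 genes higher with both drugs, although it had only 3.7 counts in the control library and 16.25 with both. All genes tested had medians of -0.01, 0.08 and 0.05 in the same comparisons.

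Of 33 genes of the proteasome and its assembly, which NRF1 drives, 0 passed the 2-fold limit in any of the 5 comparisons, beside the shares of all genes given above. All 33 lay above 0 with NBT, with a median of 0.30, 27 with trametinib, with a median of 0.12, and 31 with both drugs, with a median of 0.43. With both drugs 7 of the 33 were higher past 1.5-fold and 0 lower, where 10.5% of all genes were higher and 8.44% lower. Among the 7 was PSMD14, a deubiquitinase of the proteasome lid, with 0.88. NFE2L1 itself stood at 0.86 in the same comparison and at 0.15 with NBT alone.

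**Figure D5:**
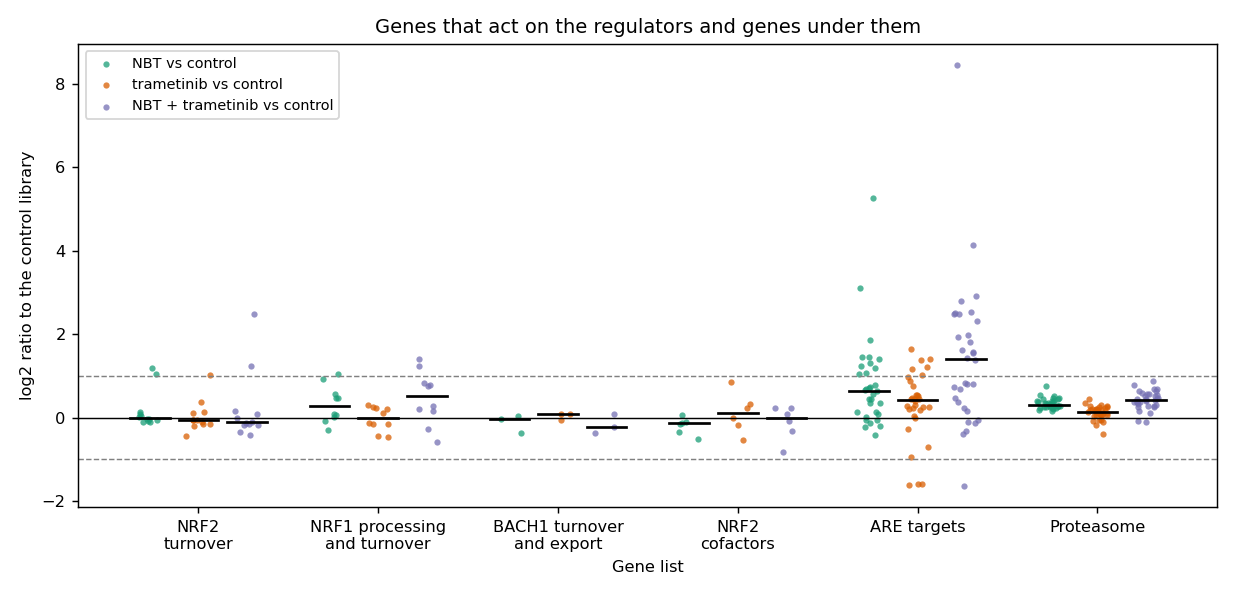
Log2 ratios against the control of the genes of each list, 1 point for each gene, with a black line at the median of each list, for NBT, trametinib and both drugs. The ARE targets spread to 8.46 with both drugs around a median of 1.40, the proteasome genes keep close to a median of 0.43, and the dashed lines mark the 2-fold limit, which a gene passes only together with the test on its counts.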

How the data were processed

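mRNA of MIA PaCa-2 cells was sequenced in 4 conditions, each as 1 library. Per the submitters' processing notes Bowtie2 2.2.5, RSEM 1.2.8 and the build hg38 were used; the role of each and the strand setting are not given in the sources used here. The authors deposited, per gene and per RefSeq transcript, an estimated count (expected count, not normalized), a TPM value and an FPKM value, and FPKM was not used here.

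The 7 genes, the lists and the motifs were chosen with earlier results of these data known. Named genes were the 7, 4 textbook ARE genes, and of each list up to 3 rises and 3 falls past the limits with at least 100 counts, and for MAFF the 5 nearest genes. PSMD14, CUL3, NGLY1, VCP, OGT, HCFC1, SMARCA4, RXRA, NRL, BACH2 and the AKR1C genes were named after their values were seen. Deposited estimated counts were rounded, scaled to the library sums, and compared as log2 ratios with 0.5 reads added. A gene was called by an exact two-sided binomial test of 2 libraries' counts, adjusted by Benjamini-Hochberg across every gene with a count of 1 or more in either of them, at 0.05 and a log2 ratio of 1 (or 0.58 for 1.5-fold). The test compares libraries and not conditions. Intervals are 95% Clopper-Pearson for ratios, exact Poisson for levels and a normal approximation on log counts for departures from additivity. They cover counting error only, since each condition has 1 library. They also treat reads as independent, whereas PCR reads are not independent molecules. An edgeR quasi-likelihood fit had no residual degrees of freedom. The calling steps were tested on simulated data. Promoter sequences came from RefSeq tables (GRCh38.p14); 6 of the 7 genes matched, with 12 windows, and MAFK had no entry. Alternatives were TMM and median-of-ratios scaling, TPM with a pseudocount of 0.1, 5 added reads, summed transcripts, a minimum of 10 counts, other fold limits and a negative binomial test with an assumed spread. Software was edgeR 4.0.16 and DESeq2 1.42.0 in R 4.3.3, and Python 3.11.15 with numpy 2.4.6, pandas 2.3.3, scipy 1.17.1, statsmodels 0.14.6 and matplotlib 3.10.9.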

Additional observations from a re-analysis of the deposited data

Results flagged for a closer look

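The trametinib ratio of MAFG had opposite signs without and with NBT. On the log2 scale it was -0.49 (trametinib against control) without NBT and 0.24 (combination against NBT) with it. The 2 values come from 4 libraries with 1 library per condition, so the difference between them was not tested against the spread between cultures. MAFG reads cannot be told apart from those of overlapping genes without strand.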

How the results depend on the processing

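The 42 log2 ratios and departures of the 7 genes were recomputed with TMM scaling, median-of-ratios scaling, TPM with a pseudocount of 0.1, 5 added reads and summed transcripts. Those whose counting interval left out 0 kept their direction. Of those whose interval included 0, KEAP1 with NBT (0.05) became -0.02 with TPM, BACH1 with trametinib (0.03) became -0.05 with TMM, -0.04 with median-of-ratios and -0.01 with TPM, KEAP1 for the combination against trametinib (-0.01) became 0.04 with TMM and 0.02 with median-of-ratios, and the departure of NFE2L2 (-0.05) became 0.01 with TPM. Beyond their counting intervals moved NFE2L1 with NBT, 0.05 with TPM, and with both drugs, 0.78 with TPM, and NFE2L1 with trametinib, 0.09 with TMM. The number of the 7 genes called was the same under these alternatives and a minimum of 10 counts. With a limit of 1.5-fold it was 2 with trametinib, 5 with both drugs, 2 against NBT and 4 against trametinib. With no fold limit it was 6 with NBT, 4 with trametinib and 6 in each comparison of the combination. Where cultures were assumed to vary with a coefficient of 0.2, edgeR's negative binomial test called 0 against NBT and 1 (MAFF) against trametinib. With 0.4 it called 0 in the comparisons of trametinib with control and of the combination with either drug, MAFF included. No paired analysis was possible because each condition has 1 library, and no replicate could be left out.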
